A study of Mus musculus with 18 samples.

Results

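The regions described here are stretches of chromatin far from gene starts that carried an ATAC-seq peak in lung endothelial cells (ECs) of all 18 mice examined. In ATAC-seq the transposase Tn5 inserts adapters where DNA is accessible, and an open site appears as a peak of fragments. Peaks of the 18 lists on chromosomes 1 to 19, X and Y overlapping by 1 bp or more were joined. A merged region was taken as a member when it had a peak in every list and lay far from gene starts. For this its midpoint had to lie more than 2 kb from every transcription start site (TSS) of the curated mm10 RefSeq transcripts. This gave 6959 members of 54619 merged regions, or 12.7%. The members were thus chosen by peak presence in all samples, and neither that presence nor the strength it requires is a finding.

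There were 5 Young Sham and 4 Young Bleo mice, and 4 Aged Sham and 5 Aged Bleo mice, with 1 peak list per mouse. All were FVB mice that carried a Col1α1-GFP reporter, which marks collagen-producing fibroblasts. Mice were 2 (young) or 18 months old (aged), and were killed 30 days after sham treatment or 1 U/kg bleomycin, which injures the lung and causes fibrosis. ECs were sorted as CD31-positive cells without CD45 (leukocytes), CD326 (epithelium) or GFP. The study asked how age and injury change chromatin accessibility in these cells. Reads of FVB mice were aligned to mm10, a C57BL/6J genome. In a sorted population, more cells with an open site and a more open site in each cell cannot be told apart. Near their own TSS, 7 of 10 endothelial marker genes had a peak in all 18 lists, against 0 of 8 leukocyte, 1 of 8 epithelial (Foxj1), 2 of 6 fibroblast and 1 of 6 smooth muscle and pericyte markers, and 7 of the 8 leukocyte markers, Ptprc among them, had no peak in any list. The endothelial marker with the fewest was Emcn, with a TSS peak in 7 lists.

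Regions of this kind are mostly enhancers, where transcription factors bind and act on promoters at a distance, or sites bound by CTCF, which anchors chromatin loops. In ECs, enhancers are rich in the GGAA core read by ETS factors such as ERG and FLI1, which maintain endothelial identity, often beside sites of SOX, FOX, GATA and AP-1 factors. The nearest gene, used below to name a region, need not be the gene on which it acts.

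Sequences are shown first, because the members are best known by what they contain. The ETS core was searched as CAGGAAG on both strands, within 200 bp around the strongest summit of a region. The 8 stretches of 80 bp printed here, on the plus strand of mm10, come from members at genes of transcription factors (Erg itself, Epas1 and Gata2), of endothelial receptors and of proteins that ECs secrete or display, and each was chosen because it holds this core. They lie at chr16:95449448-95449527 in an intron of Erg, chr5:75922870-75922949 between genes 55526 bp from the TSS of Kdr (the main VEGF receptor), chr17:86822616-86822695 in an intron of Epas1 (HIF-2α), chr2:26576134-26576213 upstream of Egfl7 (a secreted angiogenic factor), chr2:85129682-85129761 upstream of Aplnr (the apelin receptor), chr11:49613414-49613493 in an intron of Flt4 (VEGF receptor 3), chr6:88152286-88152365 upstream of Gata2 and chr15:75593129-75593208 upstream of Gpihbp1 (which carries lipoprotein lipase to the capillary lumen). Capitals mark the core, as CAGGAAG or as its reverse complement CTTCCTG.
Erg: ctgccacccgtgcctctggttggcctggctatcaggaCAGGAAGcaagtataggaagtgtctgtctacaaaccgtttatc
Kdr: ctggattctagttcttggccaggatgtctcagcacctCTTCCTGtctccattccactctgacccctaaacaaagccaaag
Epas1: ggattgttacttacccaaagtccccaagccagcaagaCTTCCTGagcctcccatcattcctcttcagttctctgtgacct
Egfl7: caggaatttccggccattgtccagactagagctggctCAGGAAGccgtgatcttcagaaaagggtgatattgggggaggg
Aplnr: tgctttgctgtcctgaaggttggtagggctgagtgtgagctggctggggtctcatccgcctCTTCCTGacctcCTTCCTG
Flt4: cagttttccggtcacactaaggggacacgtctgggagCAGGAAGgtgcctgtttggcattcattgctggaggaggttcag
Gata2: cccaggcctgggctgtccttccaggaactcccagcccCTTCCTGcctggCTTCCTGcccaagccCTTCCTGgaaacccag
Gpihbp1: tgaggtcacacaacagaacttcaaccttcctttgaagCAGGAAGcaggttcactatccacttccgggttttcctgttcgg
The Gata2 stretch holds 3 cores and the Aplnr stretch 2. The Erg window holds 3 cores, of which 1 lies in the printed stretch.

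Another 6 stretches of 80 bp show members with called differences between groups, described further on, that hold a motif searched. Capitals mark an ETS core in Gm38414 (chr8:36145387-36145466, intron) and Gm31282 (chr15:8569294-8569373, intergenic), an AP-1 site in Gm51288 (chr11:86920506-86920585, intergenic) and Gm12052 (chr11:22719675-22719754, intergenic), a KLF site in D230017M19Rik (chr1:72254716-72254795, intron) and a SOX site in Lhfpl2 (chr13:93990069-93990148, intergenic). All are on the plus strand of mm10.
Gm38414: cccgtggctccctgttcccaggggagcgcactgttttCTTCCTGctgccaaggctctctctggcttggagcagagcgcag
Gm31282: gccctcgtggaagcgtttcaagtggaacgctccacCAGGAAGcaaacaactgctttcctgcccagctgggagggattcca
Gm51288: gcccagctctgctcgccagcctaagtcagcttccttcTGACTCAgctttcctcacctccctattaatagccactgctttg
Gm12052: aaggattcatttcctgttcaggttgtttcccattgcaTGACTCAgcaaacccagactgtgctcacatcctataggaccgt
D230017M19Rik: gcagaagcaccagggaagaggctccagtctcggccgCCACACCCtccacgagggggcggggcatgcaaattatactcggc
Lhfpl2: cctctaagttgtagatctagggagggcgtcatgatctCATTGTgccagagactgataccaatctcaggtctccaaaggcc

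The last set is of members that share a run of sequence with a member at another place, and it includes the strongest of all. Each stretch is 100 bp of mm10, and capitals mark the longest run shared with its partner. Chl1 (chr6:103649154-103649253) and Pak3 (chrX:143483035-143483134) share 50 bp, Rab10os (chr12:3109944-3110043) and 4933422A05Rik (chr9:35305321-35305420) share 63 bp, Filip1l (chr16:57391437-57391536) and Cerk (chr15:86194858-86194957) share 65 bp, and Atf2 (chr2:73867931-73868030) and Zmynd11 (chr13:9834306-9834405) share 41 bp. Cerk and Zmynd11 are printed from the minus strand and the others from the plus strand.
Chl1: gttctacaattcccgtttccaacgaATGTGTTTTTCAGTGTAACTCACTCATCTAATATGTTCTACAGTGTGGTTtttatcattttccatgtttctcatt
Pak3: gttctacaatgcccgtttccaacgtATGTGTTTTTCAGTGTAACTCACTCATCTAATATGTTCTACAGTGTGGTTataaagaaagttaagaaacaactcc
Rab10os: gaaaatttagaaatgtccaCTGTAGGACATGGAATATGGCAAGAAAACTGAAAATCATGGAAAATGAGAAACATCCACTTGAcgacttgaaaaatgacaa
4933422A05Rik: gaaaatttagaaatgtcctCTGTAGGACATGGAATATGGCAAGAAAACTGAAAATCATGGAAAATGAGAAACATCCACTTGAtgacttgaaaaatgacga
Filip1l: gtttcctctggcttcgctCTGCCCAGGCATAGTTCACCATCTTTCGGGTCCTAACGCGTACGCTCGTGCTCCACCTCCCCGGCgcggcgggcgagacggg
Cerk: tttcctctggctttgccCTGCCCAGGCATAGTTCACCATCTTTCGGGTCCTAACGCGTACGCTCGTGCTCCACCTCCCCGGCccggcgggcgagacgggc
Atf2: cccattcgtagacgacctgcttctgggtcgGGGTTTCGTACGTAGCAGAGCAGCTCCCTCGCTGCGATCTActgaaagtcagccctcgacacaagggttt
Zmynd11: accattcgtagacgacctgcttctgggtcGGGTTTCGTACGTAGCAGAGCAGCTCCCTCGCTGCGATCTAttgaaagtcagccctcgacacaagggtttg

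The members were 14.7% of the 47338 regions found in 2 or more samples and 39.9% of the 17432 regions open in every sample. The other 10473 of these lay within 2 kb of a TSS, where 72.3% of the 14488 regions in at least 2 samples were open in all 18, against 21.2% of the 32850 distal regions. Distal regions with a peak in 17 samples numbered 2161 and in 16 samples 1531. With the threshold of the rule at 1 kb or 5 kb from a TSS, the members would number 7364 or 6295. Just inside the 2 kb limit, 134 members lay up to 500 bp beyond it and had a median percentile of 50.5, and just outside it the regions up to 500 bp short of it had 49.5. Distal regions missing from only 1 list had a median percentile of 43.5, against 60.7 for the members.

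The percentile used here is the place of a region's strongest peak in the fold enrichment of its own list, where 0 is the weakest and 100 the strongest peak. Fold enrichment is the number of fragments at the summit over the local background, as MACS2 computed it, and is not scaled between samples. The mean percentile of the middle 50% of members lay between 49.5 and 73.2, and their median mean fold enrichment was 12.1, against 6.27 in other distal regions and 17.3 near TSSs. Some members were weak on average although open in all samples, and 123 had a mean percentile under 20, while 114 were above 95. A typical member rested on 42.5 fragments at its summit, with 29.5 to 68.5 for the middle 50%. The standard deviation (SD) of a member's percentile over the 18 samples had a median of 11.1.

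Members were 567 bp wide at the median. A merged region widens with the number of lists that add to it, which the rule fixes, and distal regions in 17 lists had 477 bp and those in 2 to 17 lists 355 bp. Of the members, 666 held more than 1 peak in a sample. Their GC content was 52.5%, between the 49.5% of other distal regions and the 67% of regions near TSSs, and the same order held for CpG sites, with 4, 3 and 18 per 200 bp. Summits of the 18 samples fell close together, with a median SD of 29.9 bp, against 38.4 bp in other distal regions. Of the members, 54.3% were intergenic, 42% intronic, 1.95% in coding exons and 1.41% in untranslated regions, while other distal regions were 47.3% intergenic and 49.1% intronic. The median distance to the nearest TSS was 25421 bp, 935 members lay over 100 kb away, and 44.4% lay upstream of the nearest gene. Another member was within 10 kb for 1624 members, or 23.3%. The GENCODE vM21 annotation places a transcript start within 2 kb of 1143 members (16.4%) that curated RefSeq calls distal, and predicted RefSeq transcripts do so for 798. With predicted transcripts counted too, the members would number 6161. Among the 798 are members named here at Gm3411 (382 bp away), Gata2 (chr6:88152094, 5 bp) and Klf4 (chr4:55604754, 21 bp). Those at Lmo2 (chr2:103982195, 1509 bp) and Sox17 (chr1:4493130, 1866 bp) are others.

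The ETS core was the most frequent of the 11 motifs searched among the members. It stood within 200 bp around the summit of 26.8% of members, 23.1% of other distal regions, 9.76% of regions near TSSs and 19.9% of all regions in at least 2 samples. FOX sites (TGTTTAC) were found in 6.73% of members and 5.28% of other distal regions, and AP-1 sites (TGAGTCA) in 8.92% and 8.18%. SOX sites (CATTGT) were at 19% and 19.2%, GATA sites (AGATAA) at 12.1% and 12.7%, TEAD sites (ACATTCC) at 3.81% and 3.51%, KLF sites (GGGTGTGG) at 4.66% and 3.73%, and the E-box (CACGTG) at 5.03% and 3.82%. MEF2 sites stood at 2.76% and 2.88%, and NFI sites at 1.12% and 0.962%. The CTCF site was less frequent in members, with 6.85% against 9.54% of other distal regions. SOX, GATA and MEF2 sites were also less frequent in members, by smaller margins. All were searched on both strands, no searched word contains another, matches of different motifs may overlap, and a match of letters shows no binding.

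**Figure D1:**
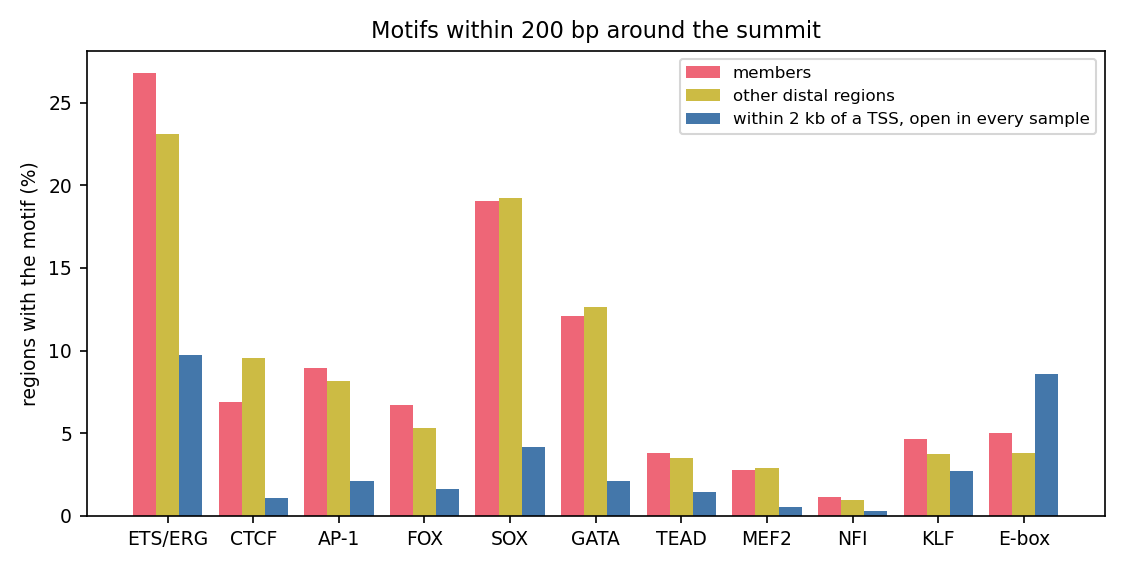
Share of regions (%) with each motif within 200 bp around the summit, as bars for the members, other distal regions with a peak in 2 to 17 samples, and regions within 2 kb of a TSS open in every sample. The ETS core reached 26.8%, 23.1% and 9.76% in these sets, and the CTCF site 6.85%, 9.54% and 1.05%.

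The motifs also differed with strength among the members. In 4 groups of equal size from the weakest to the strongest, the CTCF site fell from 9.43% through 8.28% and 5.40% to 4.31%. The SOX site stood at 14.5%, 19.1%, 22% and 20.5%, and the ETS core at 24.8%, 25.7%, 28.9% and 27.9%. Their GC content stayed within 52% to 54%. A window held 1 ETS core in 1561 members, 2 in 261, 3 in 39, 4 in 3 and 5 in 2, and 65.4% of members held at least 1 of the 11 motifs, against 64.9% of other distal regions. These shares are descriptions, and no test was made of them.

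Several of the strongest members carried sequence that is found at other places too. The 10 with the highest mean percentile, at 99.96 or above, lay at Chl1 (a neural adhesion molecule), Pak3, Pex2, Limd1, Filip1l, Txndc11, Rab10os, 4933422A05Rik, Gphn and Gm8579. The Chl1 member (chr6:103649010-103649388, intron) had a fold enrichment of 46.9 to 59.3 over the 18 lists, and the Pak3 member (chrX:143482893-143483232, intergenic) 45.6 to 61.1. The Rab10os and 4933422A05Rik members, whose sequences are printed above, lie in repeats masked over 100% of their windows, and the Rab10os window has 77 copies in the assembly. The Limd1 and Gphn windows share 30 words of 20 bp, and Filip1l shares 83 of its 181 words with Cerk, a member further down the list. The Gm8579 window (chr6:3201203-3201678) shares 81 of its 181 words of 20 bp with Rn18s-rs5, an 18S ribosomal RNA sequence at chr17:39846354-39848202. In addition, 13 members between chr9:3000001-3036344, all nearest to Mir101c and with mean percentiles of 0.771 to 46.2, share 20-bp words with the Rab10os and 4933422A05Rik members. The windows of Pex2, Limd1, Filip1l, Txndc11 and Gphn, and of Zmynd11, Atf2 and Cerk further down the list, may resemble 28S ribosomal RNA, which was not measured, as the 28S gene of the annotation used here spans 420 bp only. Whether the fragments at these members came from these places or from other copies in the genome was not tested, so their percentiles may not describe the named places.

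Windows with exact copies elsewhere were few among the members as a whole. Copies were counted as exact 31-bp words at 5 places of the 200 bp around the summit, taking the median. Diverged copies are missed by this count. By it the window was found once in the assembly for 94.5% of members and 94.5% of other distal regions. The number was 78 of the 100 strongest members and 5 of the 10 strongest. Among these 5 are Chl1, Pak3, 4933422A05Rik and Gm8579, which share sequence with other places. Windows with 10 or more copies made up 0.632% of members and 0.587% of other distal regions. In 7 members, at least 50% of the window matched the mitochondrial genome, among them 4933402J10Rik with 69.6%.

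The members lay nearest to 4582 genes, of which 3172 had 1 member, 1410 at least 2 and 104 at least 5. Apart from Mir101c, the genes with the most members were Gm10532 with 10, Epas1 and 2010106C02Rik with 9 each, and Hs1bp3, Nfia, Rybp and Tmcc3 with 8 each. Klf4 (a shear-stress-induced factor), Efnb2 (the arterial ligand ephrin-B2), Tmem100 (a target of BMP signalling in ECs), Clic5, Plpp3 and Bach2 had 7 members each. Kdr, Mef2a, Nfib, Edn2 and Sema6a had 6 each. On X there were 115 members and on Y 9. The study's methods name both female and male mice, and the sexes were not separated here. The Y members at Gm20826 have windows with 23 to 138 copies in the assembly. Whether the fragments at Y members came from Y was not tested.

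The genes of 9 lists, partly taken from the study's own report on these mice, were examined for members nearby. Of 23 genes of endothelial identity and angiogenesis, 19 had 46 members, and Tie1, Nrp1, Robo4 and Nos3 had none. An ETS core stood in 22 of these 46 windows (47.8%, against 26.8% of all members), and their median mean percentile was 56.3. The study reports ERG motifs near some of these genes, so this share is not independent of how they were chosen. In the other lists it ran from 0% at cytoskeleton and migration genes (3 members) to 66.7% at basement membrane genes (6 members). Kdr had 6 of its 18 distal regions open in every sample, Flt1 (VEGF receptor 1) 5 of 25, S1pr1 (a barrier-stabilizing receptor) 5 of 22, Cldn5 (the tight junction claudin) 4 of 10, Acvrl1 (the BMP receptor ALK1) 4 of 7 and Cdh5 (VE-cadherin) 1 of 11. The strongest member of each gene ranged widely, from Cldn5 (chr16:18733060-18733846, mean percentile 90.1 ± 3.69, SD, n = 18) and Tek (the angiopoietin receptor; chr4:94746193-94746922, 89.5 ± 5.04) down to Egfl7 (39.1 ± 8.18) and Notch1 (chr2:26500526-26501127, 32.8 ± 12.5).

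Of 22 endothelial transcription factor genes, 17 had 52 members, 15 of them with an ETS core, and Foxf1, Nr2f2, Meox2, Tbx3 and Hey1 had none. Epas1 had 9 of 26 distal regions open in every sample, Klf4 7 of 19, and Erg, Ets1, Sox17 and Mef2c 4 each. The strongest members here stayed near the top of every list, where the scale leaves little room to vary. The Klf2 member (a flow-induced factor; chr8:72295426-72296233, intergenic) had a mean percentile of 95 ± 1.70 and stayed between 92.0 and 98.6, and the Sox17 member (an arterial factor; chr1:4571495-4572230, intergenic) had 94.8 ± 1.87 and stayed between 91.5 and 98.3. Both hold an ETS core. The strongest Erg member (chr16:95372845-95373400, intron, 68.0 ± 11.5) holds a SOX site and no ETS core, and that of Fli1 (chr9:32506094-32506627, intron) had 60.8 ± 15.3.

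Among capillary genes, general capillary markers had 9 members at 5 of 9 genes, with Cd93 (87.0 ± 10.4), Aplnr (75.7 ± 7.31), Kit (70.4 ± 12.7) and Gpihbp1 (61.7 ± 7.85), and aerocyte markers had 15 members at 6 of 9 genes, with Prx (84.1 ± 7.39), Car4 (79.6 ± 5.82), Ednrb (64.2 ± 12) and Apln (44.3 ± 14). The strongest members at Ptprb (general capillary), Kdr and Tbx2 (both aerocyte) had mean percentiles of 69.9, 79.1 and 21.1. Kdr held 6 of the 15 aerocyte members. Kdr and Aplnr are also in the list of endothelial identity and angiogenesis, so their members count in both lists. Aerocytes are the large capillary cells of gas exchange, and general capillary cells are their progenitors. Basement membrane genes had 6 members at 3 of 9 genes (Col4a1, Col4a2 and Sparc), and Lama4, Hspg2, Nid1 and Nid2 had none. TGF-beta and BMP genes had 18 members at 12 of 14 genes, with 4 at Smad7, AP-1 and stress genes 9 members at 6 of 8, cytoskeleton and migration genes 3 members at 3 of 10, and of the other genes the study names beside its ATAC-seq data only Fgfr2 of 4 had a member.

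Between samples, the members' percentile moved with the length of the list. Their median percentile in Young Sham samples 1 to 5 was 69.7, 68.4, 64.1, 68.1 and 60.4, with 38747, 37087, 33331, 36956 and 30073 peaks in the lists. In Young Bleo samples 1 to 4 it was 64.4, 68.9, 69.7 and 64.3, with 34086, 39310, 39420 and 33980 peaks. The Aged Sham samples had 52.9, 62.9, 51.6 and 61.5, with 26148, 32220, 25793 and 31366 peaks, and the Aged Bleo samples 67.9, 70.8, 58.8, 40.9 and 54.5, with 37595, 40883, 29049, 21050 and 26886 peaks. Within each of the 4 groups the order of the medians was the order of the lengths. Fragments at the summit of the median member were 38 to 59 in Young Sham, 46 to 58 in Young Bleo, 28 to 43 in Aged Sham and 19 to 55 in Aged Bleo samples. Aged Bleo 4, with the shortest list, had the lowest value of both, and without its list the members would number 8287.

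**Figure D2:**
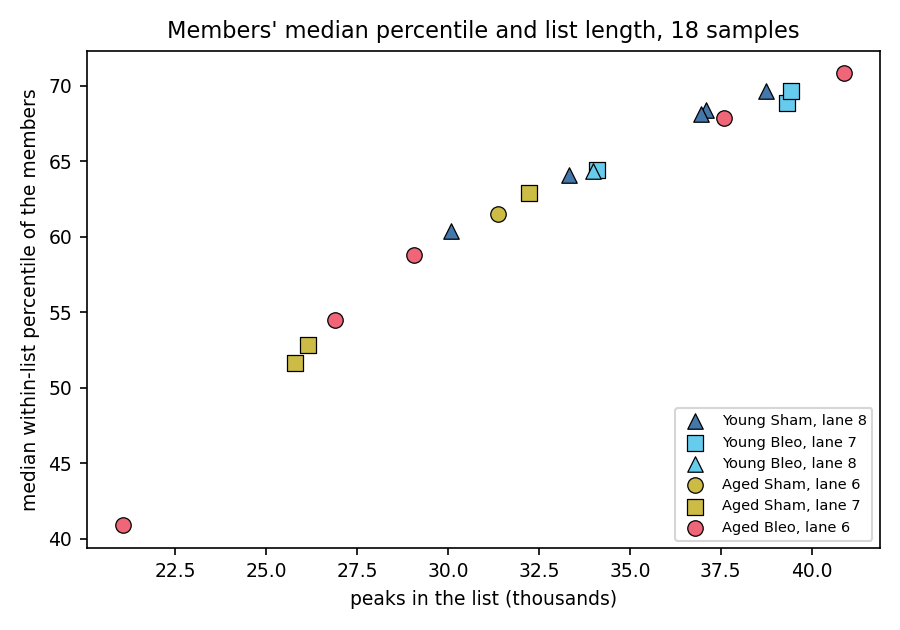
Median within-list percentile of the 6959 members (vertical) against the number of peaks in the list (horizontal), 1 point per sample, coloured by group and shaped by sequencing lane. The points rise from Aged Bleo 4, at 21050 peaks and a median of 40.9, to Aged Bleo 2, at 40883 peaks and 70.8.

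For this reason each member was compared between groups by 2 measures. The first is the within-list percentile, and the second its rank among the 17432 regions open in every sample, also on a scale of 0 to 100, which does not depend on the weak end of a list. Both were fitted with limma over these 17432 regions and 4 groups, and a region was called at a Benjamini-Hochberg adjusted p of at most 0.05 over all 17432. The largest differences named below for a comparison and direction are those of called members whose 2 groups did not overlap. At these members, the lack of overlap between the groups compared follows from this choice. The lanes of the sequencer, read from a code in the list names, run with the groups. Lane 8 held all 5 Young Sham samples and Young Bleo 4, lane 7 the other 3 Young Bleo and 3 of 4 Aged Sham samples, and lane 6 Aged Sham 4 and all Aged Bleo samples. No lane held both Young Sham and aged samples, and in a fit with lane the ages are joined only through the Young Bleo samples of lanes 7 and 8, of which lane 8 held 1. Lane and age are thus largely confounded. With lane as a covariate limma called 0 members in any comparison, by percentile or rank, with 191 to 918 members at an unadjusted p under 0.05 by percentile and 420 to 875 by rank. The lists do not say whether mice of a group were handled together, and p-values measure the spread between mice.

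Between Aged Sham and Young Sham, members were called lower far more often than higher by percentile, and less one-sidedly by rank. By percentile 103 of 6959 members (1.48%) were lower and 3 higher, against 0.901% lower and 0.0287% higher of all regions tested. By rank 73 were lower and 36 higher, against 0.539% and 0.459% of all regions tested, and 41 members were called in the same direction by both. The median difference was −7.31 percentile points over the members and −3.62 over all regions tested, and −1.30 and 0.43 by rank. With lists of equal length, which leave 4536 members among 14058 regions tested, 23 were lower and 25 higher, so the prevalence of falls was not kept. The count fell to 5 without Aged Sham 3 and rose to 586 without Aged Bleo 4, and it moved by over 1.5 times in 13 of the 18 fits that left out a library.

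The largest fall with age was at Gm3411 (chr14:6108540-6108868, intergenic), 382 bp from a predicted transcript start. Its percentile was 95.5, 96.8, 93.2, 91.5 and 88.2 in Young Sham, 41.9, 42.4, 46.0 and 36.5 in Aged Sham, 87.6, 71.0, 93.3 and 78.0 in Young Bleo, and 49.0, 77.5, 51.7, 58.1 and 32.2 in Aged Bleo samples. All aged sham samples lay below all young samples. The difference was −51.3 ± 6.49 (SE, limma adjusted p = 0.00198), with −71.2 by rank (adjusted p = 0.00159), and the call held in all 18 fits that left out a library. The Dok5 member (chr2:170826734-170827334, in an intron of this docking protein of receptor tyrosine kinases) stood at 62.6, 51.7, 41.8, 57.5 and 53.2 in Young Sham and at 21.4, 4.37, 8.13 and 8.74 in Aged Sham samples. It was at 60.4, 51.3, 58.2 and 58.9 in Young Bleo and at 45.7, 52.7, 47.4, 37.4 and 32.2 in Aged Bleo samples, so that Aged Sham lay apart from the other 3 groups. Its difference with age was −42.7 ± 5.08 (limma adjusted p = 0.00124), which did not pass by rank (−15.7, adjusted p = 0.0572). Members at Daam1 (a formin that assembles actin; −41.7), Gm8579 (chr6:3307769-3308292, intron; −40.3) and Fam171a1 (−39.7) followed, and these calls were lost in 10, 9 and 7 of the 18 fits that left out a library.

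The 3 members that were higher in Aged Sham mice were at 4933402J10Rik (27.9 ± 5.74, limma adjusted p = 0.0337), Mir509 (27.8 ± 5.34, adjusted p = 0.0295) and Gm15501 (23.8 ± 4.89, adjusted p = 0.0337). All 3 passed by rank, each with an adjusted p of 0.00159. The 4933402J10Rik window is the one that matched the mitochondrial genome over 69.6%, and mitochondrial peaks, which were left out, stood in 5 lists, of which 2 were Aged Sham, 2 Young Sham and 1 Young Bleo. Mir509 stood at 29.0, 54.5, 26.3, 40.7 and 39.4 in Young Sham and at 54.9, 70.1, 66.3 and 71.7 in Aged Sham samples. The groups did not overlap, with 54.5 and 54.9 in their nearest samples. These calls were lost in 6, 5 and 8 of the 18 fits that left out a library, in the order named.

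**Figure D3:**
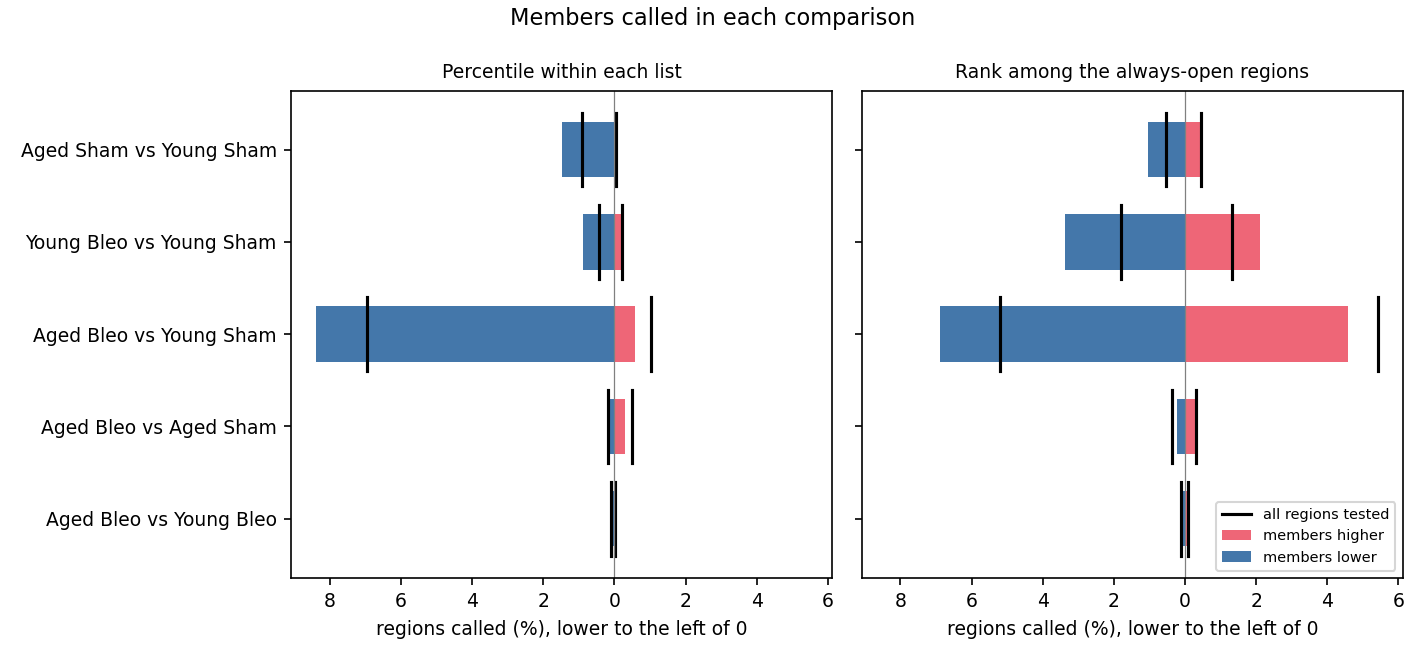
Share of the 6959 members called (%) in each of 5 comparisons, lower to the left and higher to the right of 0, by within-list percentile and by rank among regions open in every sample. Black ticks mark the share of all 17432 regions tested. By percentile lower calls prevail in both aged groups against Young Sham, with 1.48% and 8.39% of members, while by rank higher and lower calls are nearer to each other.

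In young mice, bleomycin was followed by shifts in both directions. By percentile 17 members were higher and 62 lower in Young Bleo than in Young Sham, against 0.201% and 0.447% of all regions tested, and 0.244% and 0.891% of the members. By rank 147 were higher and 234 lower, 2.11% and 3.36% of the members against 1.32% and 1.79% of all regions tested, and 71 members were called by both. With lists of equal length, 59 of 4536 members were higher and 71 lower. The median difference was 0.63 points over the members and 0.41 over all regions tested. Young Bleo 4 was the only treated sample in the lane of the Young Sham samples, too few for a comparison within a lane. The count fell to 9 without Young Bleo 1 and rose to 124 without Aged Bleo 4, and 8 of the 18 fits moved it by over 1.5 times.

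The largest fall after bleomycin in young mice was at Gm38414 (chr8:36145139-36145629, intron), whose ETS core is printed above. It stood at 78.4, 77.2, 72.2, 87.3 and 68.3 in Young Sham and at 7.75, 17.8, 32.6 and 30.2 in Young Bleo samples. The Aged Sham samples had 70.4, 75.1, 85.6 and 52.0, and the Aged Bleo samples 27.1, 24.9, 62.2, 62.2 and 53.9. The 2 young groups did not overlap, and 2 of the 5 Aged Bleo samples lay within the range of Young Bleo. The difference was −54.6 ± 8.56 (limma adjusted p = 0.0101, by rank −51.5, adjusted p = 0.0146), and the call was lost only without Young Bleo 1 (adjusted p = 0.0509). Mir7685 (chr2:158248199-158248781, intergenic), with ETS, AP-1 and GATA sites, stood at 65.4, 71.1, 63.7, 72.0 and 62.5 in Young Sham and at 16.4, 31.8, 29.0 and 37.1 in Young Bleo samples. Its Aged Bleo samples, at 59.0, 74.6, 58.9, 34.3 and 60.9, were nearly all above Young Bleo (by rank 28.6 higher, adjusted p = 0.0318, and by percentile 29.0, adjusted p = 0.0712). Members at Aldoart1 (−44.6), Stam2 (an endosomal sorting protein; −41.3) and Hs3st2 (a heparan sulfate sulfotransferase; −38.7) were the others of the 5 largest falls.

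Among the 5 largest rises in young mice, 2 carried an AP-1 site, and Cerk and Atf2 shared sequence with other members. Gm51288 (chr11:86920242-86920783, intergenic), with AP-1, ETS and MEF2 sites, stood at 29.0, 35.5, 17, 11.9 and 4.60 in Young Sham, at 59.7, 78.4, 66.1 and 52.8 in Young Bleo, at 31.4, 52.8, 36.1 and 67.1 in Aged Sham and at 78.1, 77.0, 54.5, 43.0 and 52.1 in Aged Bleo samples. Young Sham lay below both bleomycin groups without overlap. The rise was 44.7 ± 8.86 in young mice (limma adjusted p = 0.0333, lost in 7 of 18 fits that left out a library). Gm12052 (chr11:22719410-22719968, intergenic), also with an AP-1 site, rose by 39.4 ± 7.0 (adjusted p = 0.0210), and its Aged Sham and Aged Bleo samples lay between 21.4 and 59.7. Meox1 (a homeobox factor; chr11:101896927-101897450, intergenic) rose by 35.8 ± 7.88 (adjusted p = 0.0453), and by rank did not pass (adjusted p = 0.0972). Prok2 (an angiogenic secreted protein) had 70.8, 78.2, 69.6 and 70.1 in Young Bleo against 57.3 to 62.5 in Young Sham samples, a difference that passed by rank (18.9, adjusted p = 0.0400) and not by percentile (12.5, adjusted p = 0.444).

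Zmynd11, Cerk and Atf2, whose sequences are shared with other members and may resemble 28S ribosomal RNA (not measured), were among the largest rises. Zmynd11 (chr13:9834185-9834512, intergenic) stood at 73.4, 64.6, 68.5, 53.2 and 58.7 in Young Sham, 99.6, 99.9, 99.9 and 94.8 in Young Bleo, 70.6, 65.2, 77.8 and 79.8 in Aged Sham, and 99.9, 99.9, 93.2, 81.9 and 88.8 in Aged Bleo samples. Both bleomycin groups lay above both sham groups without overlap. The differences were 34.9 ± 4.26 in young mice (limma adjusted p = 0.00369), 19.4 ± 4.26 in aged mice (adjusted p = 0.0460) and 29.1 ± 4.02 between Aged Bleo and Young Sham (adjusted p = 0.00136). Cerk rose by 38.9 ± 7.10 in young mice (adjusted p = 0.0227) from 42.6 to 56.8 in Young Sham to 79.4 to 98.7 in Young Bleo samples. Atf2 rose by 40.3 ± 9.01 (adjusted p = 0.0480) and its Young Bleo samples were at 91.1, 94.7, 92.7 and 66.2. The Zmynd11 window shares 60 of its 181 words of 20 bp with Atf2 and 10 with Txndc11, and the Cerk window 83 with Filip1l. Whether these members draw on the same fragments was not tested.

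The comparison of Aged Bleo with Young Sham combines age, injury and lane and gave the most calls. By percentile 584 members were lower and 41 higher, 8.39% and 0.589% of the members against 6.96% and 1.04% of all regions tested. By rank 479 were lower and 318 higher, 6.88% and 4.57% of the members against 5.21% and 5.43% of all regions tested, and 430 members were called by both. With lists of equal length the counts were 244 lower and 238 higher of 4536 members, so here too the prevalence of falls was not kept. The median difference was −6.34 points over the members and −3.25 over all regions tested, and by rank −0.56 and 0.34. Leaving out a library gave 242 (without Young Sham 2) to 1105 calls (without Aged Bleo 2).

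The member with the smallest adjusted p of this comparison was at Lhfpl2 (a tetraspan membrane protein; chr13:93989893-93990392, intergenic, SOX site printed above). It stood at 59.1, 53.9, 57.5, 54.3 and 51.2 in Young Sham, 41.2, 40.5, 40.7 and 35.3 in Young Bleo, 23.8, 48.1, 28.8 and 53.7 in Aged Sham and 24, 16.9, 12.8, 10.2 and 5.81 in Aged Bleo samples. Both bleomycin groups lay below Young Sham, and Aged Bleo below Young Bleo, without overlap. The difference was −41.3 ± 5.12 from Young Sham (limma adjusted p = 0.000756, by rank −16.8, adjusted p = 0.00126) and −24.7 ± 5.43 from Aged Sham (adjusted p = 0.0460, by rank −10.8, adjusted p = 0.0689). Gm17215 (chr8:7060235-7060677, intergenic) fell by 47.0 and was lower in Aged Sham also (−38.8, adjusted p = 0.0315), with 77.1 to 84.7 in Young Sham, 35.4 to 55.3 in Aged Sham and 16.5 to 53.6 in Aged Bleo samples. Megf6 (an EGF-repeat protein) fell by 41.5, Usp6nl (a GTPase-activating protein of RAB5) by 41.6 and Hs3st2 by 43.3, and all 5 calls held in every fit that left out a library. With lane as a covariate none of them was called, and the Hs3st2 difference changed sign to 1.68. Rises at Polr2e (35.6), Arhgef26 (34.7) and Meox1 (30.7) were called too, but their groups overlapped. Of the 5 largest rises without overlap, Gm51288 (41.3), A530032D15Rik (40.1), Cerk (33.9) and Zmynd11 (29.1) held whichever library was left out. Atf2 (35.1) did not without Young Sham 4 (limma adjusted p = 0.0562). With lane as a covariate none was called, and the differences changed sign at Gm51288 (−0.88), Cerk (−2.42) and Atf2 (−20.1). The A530032D15Rik window has 12 copies in the assembly.

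Within aged mice, 20 members were higher and 8 lower in Aged Bleo than in Aged Sham by percentile, 0.287% and 0.115% of the members against 0.505% and 0.195% of all regions tested. By rank 23 were higher and 16 lower, against 0.304% and 0.367% of all regions tested, and 17 members were called by both. Aged Sham 4 was the only Aged Sham sample in the lane of the Aged Bleo samples, too few for a comparison within a lane. The count was 1 without Aged Sham 3 and 112 without Aged Bleo 4. Dok5, which stood lowest in Aged Sham, was 32.4 ± 5.08 higher in Aged Bleo (limma adjusted p = 0.0168, by rank 13.4, adjusted p = 0.104). Prok2 stood at 31.4, 4.37, 38.1 and 39.8 in Aged Sham and at 62.9, 63.7, 64.6, 52.6 and 54.5 in Aged Bleo samples (31.2 ± 5.73, adjusted p = 0.0259, by rank 24.9, adjusted p = 0.0410). Cobl (an actin nucleator, with an ETS core) had 14, 35.1, 33.7 and 31.6 against 67.7, 54.6, 54.6, 60.1 and 52.8 (29.4 ± 4.87, adjusted p = 0.0168). In both, every Aged Bleo sample lay above every Aged Sham sample. Ptpro (34.2) and Acoxl (28.9) were the other rises of the 5 largest.

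The 5 largest falls within aged mice included members that had been strong and steady in the other groups. D230017M19Rik (chr1:72254536-72255440, intron, 85 fragments at the median summit) stood at 81.8, 90.2, 87.8, 86.9 and 84.3 in Young Sham, 83.4, 88.5, 81.8 and 84.4 in Young Bleo, 85.1, 91.5, 81.3 and 88.9 in Aged Sham and 67.6, 73.3, 74.2, 67.6 and 73.5 in Aged Bleo samples. Aged Bleo lay below all 13 other samples. The difference was −15.4 ± 2.46 from Aged Sham (limma adjusted p = 0.0168, by rank −27.9, adjusted p = 0.0410), held in all 18 fits that left out a library, and −13.3 ± 2.46 from Young Bleo (adjusted p = 0.0461, by rank −17.1, adjusted p = 0.137). Gm36298 (chr13:62684575-62685386, intergenic) behaved alike, with 62.9 to 79.9 in Aged Bleo and 80.01 to 89.5 in all other samples (−15.2 ± 3.10 from Aged Sham, adjusted p = 0.0366). Mir23a (upstream of a microRNA cluster expressed in ECs; chr8:84198283-84198753) stood at 29.9 to 45.4 in both sham groups and at 5.98 to 24.8 in both bleomycin groups, without overlap, on 174 fragments at the median summit. It was lower in young (−23.7, adjusted p = 0.0304) and aged mice (−25.1, adjusted p = 0.0259) by percentile, but by rank the differences of −5.84 and −10.1 did not pass (adjusted p = 0.356 and 0.125). Fermt1 (kindlin-1; −38.7) and Cyp4b1 (a lung cytochrome P450; −30.1) were the other 2 falls.

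Between Aged Bleo and Young Bleo the calls were few. By percentile 2 members were lower and 0 higher (limma), against 0.0975% and 0.00574% of all regions tested, although 1302 members had an unadjusted p of at most 0.05. By rank 10 were lower and 7 higher, against 0.12% and 0.0803% of all regions tested. The 2 members were D230017M19Rik and Gm31282 (chr15:8569017-8569655, intergenic), whose ETS core is printed above. Gm31282 stood at 79.1, 76.0, 78.0 and 88.2 in Young Bleo and 58.7, 64.9, 46.9, 56.7 and 60.3 in Aged Bleo samples, with 67.1 to 78.3 in Young Sham and 60.6 to 64.3 in Aged Sham samples. Young and aged samples did not overlap in either treatment. The difference was −22.8 ± 3.75 (adjusted p = 0.0303, by rank −28.1, adjusted p = 0.0883), and it was lost in 9 of the 18 fits that left out a library. The test of whether the response to bleomycin differed between aged and young mice called 0 members and 0% of all regions tested by percentile and by rank, and 393 members (5.65%) had an unadjusted limma p of at most 0.05 by percentile and 753 (10.8%) by rank. The smallest adjusted p of a member was 0.566 by percentile and 0.140 by rank.

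The gene lists were read against these shares, and since their genes were partly chosen from the study's own report, their counts are no independent evidence of a direction. Of the 46 members at endothelial identity genes, limma called 0 by percentile or rank in Aged Sham or Young Bleo against Young Sham, or in Aged Bleo against Aged Sham or Young Bleo. An unadjusted p under 0.05 was reached by 5, 7, 3 and 3 of them by percentile, and by 3, 7, 7 and 3 by rank, in that order. Of all members it was reached by 24.7%, 12.9%, 11.4% and 18.7% by percentile, and by 19.6%, 24.1%, 15.6% and 14.9% by rank. In Aged Bleo against Young Sham 3 were lower and 1 higher by percentile, where 6.96% of all regions tested were lower and 1.04% higher, and 1 was lower and 3 higher by rank (5.21% and 5.43% of all). The median difference of the 46 was −3.55 percentile points, against −3.25 over all regions tested. Egfl7 (chr2:26575917-26576391, ETS core printed above) was at 39.0, 27.1, 34.8, 28.9 and 40.3 in Young Sham and at 47.3, 45.7, 50.5, 47.5 and 57.1 in Aged Bleo samples, with 30.2 to 42.5 in the other groups. Aged Bleo lay above all other samples, by 15.6 ± 3.66 from Young Sham (limma adjusted p = 0.0175, by rank 17.2, adjusted p = 0.0202). Vwf (von Willebrand factor; chr6:125573129-125573636, intron) was at 89.5, 85.9, 72.2, 84.1 and 72.7 in Young Sham, 66.1, 70.0, 72.9 and 71.4 in Young Bleo, 80.8, 79.9, 83.1 and 73.9 in Aged Sham and 56.6, 65.9, 69.5, 56.5 and 69.9 in Aged Bleo samples. Aged Bleo lay below both sham groups, by 17.3 from Young Sham (−17.3 ± 3.83, adjusted p = 0.0136, by rank −23.1, adjusted p = 0.0416). The Young Bleo samples overlapped both Young Sham and Aged Bleo. Egfl7 had 3 members and Vwf 2, and no other of these was called.

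The 2 called members at Pecam1 (CD31, the marker used for sorting) did not move alike. The one at chr11:106677948 stood at 44.1, 30.04, 35.6, 41.7 and 33.5 in Young Sham and at 13.8, 12.3, 6.12, 0.905 and 28.9 in Aged Bleo samples, a difference of −24.6 ± 5.50 (limma adjusted p = 0.0141), but by rank only −3.71 (adjusted p = 0.128). The one at chr11:106674535 had 55.3 to 66 in Young Sham and 66.6 to 77.2 in Aged Bleo samples, which passed by rank (22.6, adjusted p = 0.0105) and not by percentile (9.03, adjusted p = 0.0937). Aplnr fell by 12.4 by percentile (adjusted p = 0.0420, by rank −14.6, adjusted p = 0.0566), and Flt4 passed by rank alone (14.8, adjusted p = 0.0382). At general capillary genes, 2 of 9 members were lower in Aged Bleo than in Young Sham by percentile, against 6.96% of all regions tested. They were Aplnr and the Kit member at chr5:75472338 (−18.0, limma adjusted p = 0.0433). This Kit member had a mean percentile of 58.2 ± 10.6 and is not the strongest at Kit. By rank 1 was lower, Kit (−16.0, adjusted p = 0.0151), and 1 higher, Gpihbp1 (18.8, adjusted p = 0.0306), which was higher by rank in Aged Sham also (25.9, adjusted p = 0.0397), and Kit was lower by rank in Young Bleo also (−16.0, adjusted p = 0.0389). Of all regions tested, 5.21% were lower and 5.43% higher by rank in Aged Bleo, 0.459% higher in Aged Sham, and 1.79% lower and 1.32% higher in Young Bleo. At aerocyte genes 0 of 15 were called by percentile (limma, with 0 to 3 at an unadjusted p under 0.05 in a comparison). By rank, 1 of the 2 members at Ednrb (the endothelin B receptor), at chr14:103815480, was higher than in Young Sham. It was higher in Young Bleo (25.2, limma adjusted p = 0.0389) and in Aged Bleo (26.6, adjusted p = 0.0116), and the other Ednrb member was not called.

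Of the 52 members at transcription factor genes, 7 were lower and 0 higher in Aged Bleo than in Young Sham by percentile, against 6.96% lower and 1.04% higher of all regions tested. The median difference was −4.69 points, against −3.25 over all regions tested. In Aged Sham 2 were lower (0.901% of all regions tested), and limma called 0 in Young Bleo, where 8 had an unadjusted p under 0.05, as did 12.9% of all members. By rank 6 were lower and 5 higher in Aged Bleo (5.21% and 5.43% of all regions tested), 3 lower and 1 higher in Aged Sham (0.539% and 0.459% of all), and 3 lower and 1 higher in Young Bleo (1.79% and 1.32% of all). Ets2 (an ETS factor; chr16:95750249-95750673, intergenic) stood at 59.0, 55.3, 52.8, 59.9 and 54.8 in Young Sham, 40.0, 31.8, 49.0 and 30.2 in Young Bleo, 35.4, 13.7, 13.3 and 13.5 in Aged Sham, and 45.7, 33.6, 26.5, 16.5 and 44.5 in Aged Bleo samples. Young Sham lay above all other samples. It was lower by 37.4 in Aged Sham (−37.4 ± 6.20, limma adjusted p = 0.0157) and by 23 in Aged Bleo (adjusted p = 0.0250), and by rank in all 3 groups (adjusted p = 0.0261, 0.0260 and 0.0266 in Aged Sham, Aged Bleo and Young Bleo). Epas1 has 9 members, of which the one at chr17:86822233-86822860, with the ETS core printed above, stood at 58.1, 57.0, 41.9, 64.7 and 54.0 in Young Sham, 28.5, 26.6, 12.6 and 25.6 in Aged Sham, and 45.4, 27.8, 22.9, 6.43 and 12 in Aged Bleo samples. It was lower by 31.8 in Aged Sham (adjusted p = 0.0466) and by 32.2 in Aged Bleo (adjusted p = 0.0108), and Young Bleo, at 35.5 to 59.9, was not called.

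At other factors, members moved in both directions. Lmo2 (a cofactor of TAL1; chr2:103982195-103982577) fell from 52.6 to 71.9 in Young Sham to 15.1 to 48.3 in Aged Bleo samples (−30.1 ± 6.71, limma adjusted p = 0.0139, by rank −24.0, adjusted p = 0.00134), and was lower by rank in Aged Sham (−20.2, adjusted p = 0.0237) and Young Bleo (−19.7, adjusted p = 0.0123). Of the 7 Klf4 members, the one at chr4:55514686 was at 85.2 to 90.3 in Young Sham, 90.6 to 93.3 in Young Bleo, 79.1 to 85.0 in Aged Sham and 55.3 to 84.4 in Aged Bleo samples, so that young lay above aged samples in both treatments. It was lower in Aged Bleo than in Young Sham by percentile (−17.1, adjusted p = 0.0305) and rank (−23.5, adjusted p = 0.00973), and lower than in Young Bleo by rank (−28.0, adjusted p = 0.0427). The Klf4 member at chr4:55604754 fell by 9.75 (adjusted p = 0.0201), and that at chr4:55670141 rose by rank alone (16.1, adjusted p = 0.00725). Another Klf4 member, at chr4:56082386, was lower by rank in Young Bleo than in Young Sham (−32.9, adjusted p = 0.0394). Of the 4 Mef2c members, that at chr13:83517880 fell in Aged Bleo by percentile alone (−13.9, limma adjusted p = 0.0461). So did 1 of the 3 Foxo1 members (chr3:52197929, −19.3, limma adjusted p = 0.0403). Of the 2 Fli1 members, that at chr9:32506094 fell by rank alone (−21.1, limma adjusted p = 0.0408). Both Gata2 members rose by rank alone in Aged Bleo (21.2 and 21.3, adjusted p = 0.0196 and 0.00586), as did Sox17 at chr1:4493130 (22.8, adjusted p = 0.00541). Of the 3 Sox7 members, that at chr14:63962611 was higher by rank in all 3 groups than in Young Sham. The differences were 25.3 in Aged Bleo (limma adjusted p = 0.00200), 26.1 in Young Bleo (adjusted p = 0.00445) and 19.6 in Aged Sham (adjusted p = 0.0414). No other member at Mef2c, Foxo1, Fli1, Sox17 or Sox7 was called. Of the 4 Erg members, limma called 0 in any comparison by percentile or rank, and 0 had an unadjusted p under 0.05. Of all members, 5.65% to 28.6% had such a p in a comparison, so 0 of 4 says little about Erg.

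**Figure D4:**
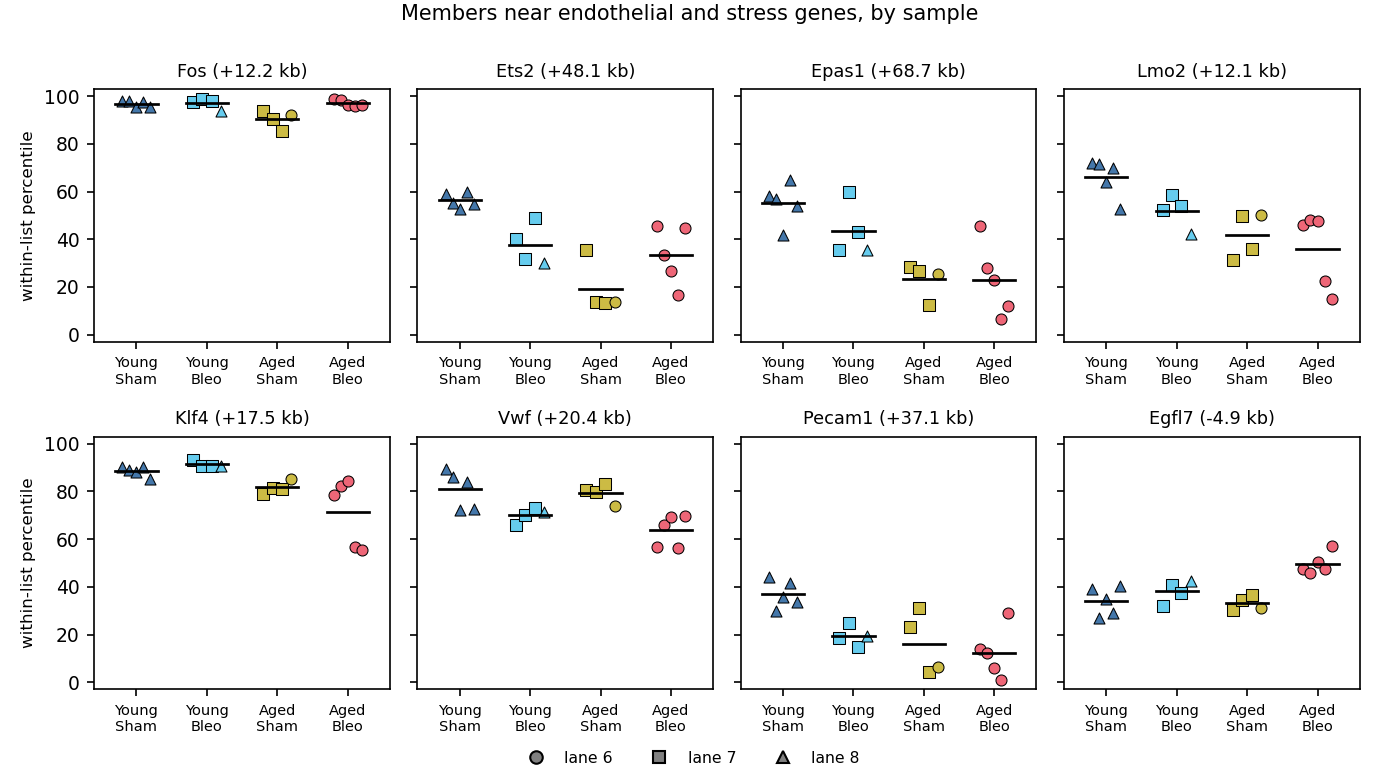
Within-list percentile (vertical) of 8 members near endothelial and stress genes in the 4 groups, 1 symbol per sample in replicate order, shaped by sequencing lane, with a line at each group's mean and the distance from the TSS in the titles. Ets2 is at 52.8 or above in Young Sham and at 49.0 or below elsewhere, and Egfl7 is at 45.7 or above in Aged Bleo and at 42.5 or below elsewhere.

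Of 9 members at AP-1 and stress genes, 2 were lower in Aged Sham than in Young Sham by percentile, Fos and Junb, and Fos alone by rank, against 0.901% and 0.539% of all regions tested. Their median difference was −3.75 points, against −3.62 over all regions tested. Fos (chr12:85485780-85486409, intergenic), one of the strongest members with 210.5 fragments at the median summit, stood at 98.1, 97.8, 95.3, 97.7 and 95.3 in Young Sham, 97.8, 98.9, 98.1 and 93.9 in Young Bleo, 93.8, 90.6, 85.4 and 92.0 in Aged Sham and 98.6, 98.4, 96.1, 95.8 and 96.4 in Aged Bleo samples. Aged Sham lay below all other samples. It was 6.40 lower than Young Sham (−6.40 ± 1.41, limma adjusted p = 0.0435) and Aged Bleo 6.65 ± 1.41 above it (adjusted p = 0.0407), and both passed by rank (adjusted p = 0.0415 and 0.0410). Without Aged Sham 3 neither passed (adjusted p = 0.116 and 0.114). Junb (chr8:84976154-84976804, intergenic) had 36.1, 36.7, 32.8, 36.2 and 34.5 in Young Sham and 8.0, 16.6, 8.77 and 25.4 in Aged Sham samples (−20.6 ± 4.50, adjusted p = 0.0432), but by rank the difference was −3.08 (adjusted p = 0.678).

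In the other lists, percentile called 0 of 18 members at TGF-beta and BMP genes, 0 of 6 at basement membrane genes, 0 of 3 at cytoskeleton genes and the 1 Fgfr2 member in no comparison (limma). In a comparison, 1 to 3 of the 18, 0 to 1 of the 6, 0 to 2 of the 3 and 0 to 1 of the 1 had an unadjusted p under 0.05 by percentile. By rank, Smad1 (chr8:79350138, a BMP signal transducer) was higher in Young Bleo than in Young Sham (42.7, adjusted p = 0.0187), with 63.1, 82.4, 83.9 and 74.9 against 46.2, 50.6, 52.0, 30.6 and 27.9. Its Aged Bleo samples spread from 5.00 to 80.7. Ltbp1 (which stores latent TGF-beta) was lower in Aged Bleo (−25.4, adjusted p = 0.0302), Rhob (a small GTPase of the cytoskeleton) was higher in Young Bleo (23.9, adjusted p = 0.0313) and Aged Bleo (18.7, adjusted p = 0.0340), and Itgb1 (integrin β1) was higher in Aged Bleo (14.8, adjusted p = 0.0290), all against Young Sham. By rank 1.32% of all regions tested were higher in Young Bleo, and 5.43% higher and 5.21% lower in Aged Bleo.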

How the data were processed

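The data are ATAC-seq peak lists of sorted lung ECs from 18 mice. According to the study's methods, the authors aligned paired-end reads to mm10 with BWA, removed duplicates and detected peaks with MACS2 at an FDR of 1%, and 1 list was deposited for every mouse. The deposited fold enrichment is a ratio of fragments at the summit to local background, and the deposited −log10 p and −log10 q come from the same MACS2 call by the authors. None is scaled between libraries, and neither the read totals nor the counts of the authors' DiffBind comparison are in the lists used here, so that comparison was not repeated. The deposited score was not used. Pairs were retained when at least 1 end was placed at a single locus, so the other end could lie in a repeat, and a filter on blacklisted regions was not given in the sources used here.

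From 593980 nuclear peaks (19 mitochondrial ones left out), regions were merged at an overlap of at least 1 bp and placed by their midpoint against 45756 curated RefSeq transcripts of mm10, the gene with the nearest TSS giving the name. Percentiles are 100 × (rank − 0.5) / N of the fold enrichment in a list, with ties averaged. At the low end of a list few fragments make values coarse and equal for several regions. Fragments at the summit were solved from fold enrichment and p. They set the precision, and openness too weak for a peak was not detectable. Tests used limma 3.58.1 in R 4.3.3 with a trend, all 4 groups, 14 residual degrees of freedom and Benjamini-Hochberg adjustment over 17432 regions. ± is the SE of a difference and the SD elsewhere. Motifs, copies (31-bp words of 5 places per window) and shared words of 20 bp were read from the mm10 assembly within 200 bp around the summit, with Python 3.11.15, numpy 2.4.6, pandas 2.3.3 and scipy 1.17.1.

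Genes were named from the 10 strongest members, the 5 largest called and non-overlapping differences in each comparison and direction, and the gene lists. Others were named for having the most members, for sequence shared with other places, or for the most variable percentiles. Members and lists were chosen with earlier results of these data known. The alternatives were another ranking value, another set of regions tested, equal numbers of peaks, a stricter q, lane as a covariate, the replicate number as a block, limma without a trend, autosomes only, other limits of distance or coverage and each sample left out. Windows found once in the assembly, and for the rank also lane, block and samples left out, were chosen after seeing the data.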

Additional observations from a re-analysis of the deposited data

Results flagged for a closer look

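Single samples stood far from the others of their group in 7 of 208 groups of values compared (192 of member percentiles and 16 of per-sample summaries), by Dixon's test at its 95% critical values, by which about 1 in 20 groups is set apart by chance. Young Bleo 4, which ran in the lane of the Young Sham samples, was the sample set apart in 3 of them. At Atf2 (chr2:73867837) it stood at 66.2 against 91.1 to 94.7 in the other Young Bleo samples, at Zmynd11 at 94.8 against 99.6 to 99.9, and at Lhfpl2 at 35.3 against 40.5 to 41.2. Whether the lane bears on this was not tested. Young Bleo 2 was at 78.2 at Prok2 against 69.6 to 70.8, and Young Bleo 1 at 93.3 at Klf4 (chr4:55514686) against 90.6 to 90.8. Aged Sham 1 was at 14 at Cobl against 31.6 to 35.1, and at 35.4 at Ets2 against 13.3 to 13.7.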

How the results depend on the processing

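Both the counts of called members and their split into higher and lower depended on the setting. Against Young Sham the calls by percentile were 106 (Aged Sham), 79 (Young Bleo) and 625 (Aged Bleo), with 28 in Aged Bleo against Aged Sham, 2 in Aged Bleo against Young Bleo and 0 for the difference of responses. With −log10 p as the ranking value these became 468, 125, 1169, 152 and 63, and with log2 fold enrichment Young Bleo had 324, Aged Bleo against Aged Sham 86 and against Young Bleo 31. Ranked among regions open in every sample, Young Bleo had 381 and Aged Bleo against Young Bleo 17. Tested over all regions in at least 2 samples, Young Bleo had 146, Aged Bleo against Aged Sham 6 and against Young Bleo 21. With lists of equal length (4536 members), Aged Sham had 48, Young Bleo 130, Aged Bleo against Aged Sham 11 and against Young Bleo 9. The share of lower calls, 97.2% in Aged Sham, 93.4% in Aged Bleo against Young Sham and 100% (2 of 2) against Young Bleo, was then 47.9%, 50.6% and 33.3%, and by rank 67% in Aged Sham and 60.1% in Aged Bleo against Young Sham. Without a trend Aged Bleo against Aged Sham had 45 and against Young Bleo 1. With lane as a covariate every count was 0, by percentile and by rank, and 4 differences between Aged Bleo and Young Sham changed sign, to −0.88 at Gm51288, −20.1 at Atf2, −2.42 at Cerk and 1.68 at Hs3st2. Lane and age are largely confounded. Replicate numbers do not pair the samples (mean correlation of same-numbered deviations 0.02 over 25 pairs, from −0.26 to 0.36), and with a replicate block Young Bleo had 30, Aged Bleo against Aged Sham 2 and against Young Bleo 0, or 1 and 4 by rank for Aged Bleo against Aged Sham and against Young Bleo. Leaving out each sample gave 5 to 586, 9 to 124, 242 to 1105, 1 to 112, 0 to 72 and 0 calls in the order above, and by rank 30 to 155, 128 to 469, 480 to 807, 2 to 73, 3 to 44 and 0 to 2 (the 2 without Aged Sham 3). The members numbered 6959, 4536 with equal lists, 2986 where peaks cover 50% or more of the region, and 6963 to 8287 with a sample left out. Of 57 named differences, 16 stayed called in every fit that left out a sample, and of 1026 such values 725 stayed called, 301 did not and 0 changed sign. Ranked among regions open in every sample, 42 of the 57 stayed called, and with a replicate block 31. The causes were not tested. Counting only windows found once by the exact 31-bp words, which miss diverged copies, gave 100, 73, 593, 25, 2 and 0 calls. The strongest 10 members kept mean percentiles of 96.4 to 99.99 by −log10 p. The median member rested on 19 to 59 fragments at its summit in a sample.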

Other observations

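The members that varied most over the 18 samples were chosen after their values were seen, by the SD of their percentile, and 6 of the 10 highest in this were called in no comparison. Dusp6 (a phosphatase that limits ERK signalling; chr10:99409592-99410160, intergenic, SD 23.8) stood at 77.2, 64, 61.9, 76.9 and 39.4 in Young Sham, 80.6, 90.1, 89.0 and 79.3 in Young Bleo, 41.9, 78.6, 22.4 and 82.3 in Aged Sham, and 94.3, 93.5, 50.1, 16.5 and 64.5 in Aged Bleo samples. The ranges of the 4 groups overlapped except that Young Bleo lay above Young Sham. Cyrib (a RAC1 interactor; chr15:64018322-64019011, intron, SD 24.1) had 15.8, 63.9, 8.93 and 71.3 in Aged Sham and 71.3, 80.2, 28.5, 3.24 and 54.8 in Aged Bleo samples. In both members the low aged samples were Aged Sham 1 and 3 and Aged Bleo 3 and 4, which have 4 of the 5 shortest lists.

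The other 4 of these 10 were called by rank in Young Bleo against Young Sham, Gm38414 among them, which the comparison of young mice describes. Arhgef26 (an exchange factor of RhoG; chr3:62159029-62159351, intergenic) stood at 51.1, 28.6, 37.1, 26.5 and 39.4 in Young Sham and at 77.7, 93.4, 89.98 and 71.6 in Young Bleo samples (limma by rank, adjusted p = 0.0131, by percentile 0.0548), and was higher in Aged Bleo than in Young Sham also (by percentile, adjusted p = 0.0421, by rank 0.0108). Polr2e (a subunit of RNA polymerase II; chr10:80036798-80037273, intron) stood at 41.8, 9.17, 9.94, 31.9 and 25.4 in Young Sham and at 68.2, 70.3, 70.9 and 50.2 in Young Bleo samples (limma by rank, adjusted p = 0.0149, by percentile 0.101), and was higher in Aged Bleo also (by percentile, adjusted p = 0.0396, by rank 0.00267). In both, Young Bleo lay above Young Sham without overlap.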
